A study of Homo sapiens with 18 samples.

Results

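Wild-type SRF was compared with the vector pMSCV in MSC-hTERT cells, a human mesenchymal stem cell line immortalized with telomerase. The comparison uses the 3 libraries labelled SRF and the 3 labelled pMSCV, 6 of the 18 libraries of the series, and covers all genes. The other 12 libraries express fusions of SRF with FOXO1, ICA1L, PDGFRB or RELA, 3 libraries each. They enter the estimate of the spread. pMSCV is a retroviral vector, read here as the control without an insert. All groups share the same line, the same medium with serum, FGF-2, ascorbic acid and heparin, and the hTERT transgene. The labels do not say whether a line is a clone or a pool, which promoter drives the construct, or whether the libraries of a group came from separate cultures. The p-values below therefore measure the spread between libraries, which may be technical.

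SRF (serum response factor) is a MADS-box transcription factor that binds a DNA element called the CArG box. It acts with 2 families of cofactors. The myocardin-related factors MRTFA and MRTFB follow the pool of free actin and are known for driving cytoskeletal and smooth muscle genes, and the ternary complex factors ELK1, ELK3 and ELK4 follow MAP kinase signalling and drive immediate early genes such as FOS and EGR1. In mesenchymal cells SRF is best known for the contractile programme of smooth muscle and myofibroblasts. The comparison asks which of these programmes, or which other genes, differ when the factor itself is supplied in excess.

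The libraries held 23264166 to 28877142 counts. At that depth, 3 counts, the most that a count of 0 allows, came to between 0.104 and 0.129 CPM (the counts scaled to a common library total), which covers counting error only. All 7 mesenchymal stromal markers were present, at a summed 9671 to 11749 CPM in pMSCV and 10365 to 11511 CPM in SRF. Libraries with the same number deviated together and the 2 libraries numbered 2 stood apart for immediate early genes: FOS was at 13.6 and 24.7 CPM there and at 622 to 1114 CPM in the other 4. In the pair numbered 3, the median log2 difference of SRF from pMSCV was -0.33 for the 10% longest genes and 0.10 for the 10% shortest. In the pairs numbered 1 and 2 it was 0.00 and 0.02 for the longest. The results are given without and with the replicate number as a block (a term that removes what same-numbered libraries share), and the counts are also given without single libraries.

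The SRF gene (ENSG00000112658, GRCh38 chr6:43171299-43181507, plus strand) was at 61.1, 64.4 and 57.3 CPM in pMSCV libraries 1 to 3 and at 1036, 1122 and 678 CPM in SRF. Every SRF library was far above every pMSCV library, and the lowest of them was number 3. The difference was 15.7-fold with the block (log2 fold change 3.98, SE 0.25, edgeR quasi-likelihood adjusted p 1.55e-06) and 3.99 on the log2 scale without it (SE 0.25, edgeR adjusted p 8.06e-07). Reads of the native gene and of the construct cannot be told apart in these counts, so the level of the native transcript is not known. The genes on either side were not called: PTK7, a receptor-like kinase, had a log2 fold change of -0.21 (SE 0.11) and CUL9, a cullin, -0.03 (SE 0.13), with edgeR adjusted p of 0.52 and 0.96 in the fit with the block.

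The promoters below, from RefSeq (GRCh38.p14), run from 250 bases before to 50 after the annotated start and show which of the called and canonical genes carry a CArG box there. The box was searched as CC, 6 letters that are each A or T, and GG, on both strands, and matches stand in capitals. The first 4 are the genes with a promoter in the table that were called without the block. The next 2 are the other genes called with the block that hold a match, and the last 3 are canonical SRF targets that hold one.
SRF, chr6:43171019-43171318, plus strand: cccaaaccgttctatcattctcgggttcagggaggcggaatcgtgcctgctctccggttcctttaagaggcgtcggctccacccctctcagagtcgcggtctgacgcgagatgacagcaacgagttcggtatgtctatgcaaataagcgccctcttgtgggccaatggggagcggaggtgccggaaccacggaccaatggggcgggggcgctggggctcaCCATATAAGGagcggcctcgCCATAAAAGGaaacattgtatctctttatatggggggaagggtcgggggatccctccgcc
PTER, chr10:16436760-16437059, plus strand: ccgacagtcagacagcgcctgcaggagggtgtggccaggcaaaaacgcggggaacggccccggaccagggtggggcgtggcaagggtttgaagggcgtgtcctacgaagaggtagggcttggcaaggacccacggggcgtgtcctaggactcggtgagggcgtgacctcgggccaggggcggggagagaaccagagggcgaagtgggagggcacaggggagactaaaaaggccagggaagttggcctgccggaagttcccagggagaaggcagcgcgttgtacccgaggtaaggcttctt
EPM2A, chr6:145735974-145736273, minus strand: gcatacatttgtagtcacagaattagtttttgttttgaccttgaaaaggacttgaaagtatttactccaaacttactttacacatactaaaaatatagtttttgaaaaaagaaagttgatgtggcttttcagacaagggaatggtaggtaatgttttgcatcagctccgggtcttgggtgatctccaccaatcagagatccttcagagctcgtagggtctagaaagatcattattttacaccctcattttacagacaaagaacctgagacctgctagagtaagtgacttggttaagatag
GZMA, chr5:55102396-55102695, plus strand: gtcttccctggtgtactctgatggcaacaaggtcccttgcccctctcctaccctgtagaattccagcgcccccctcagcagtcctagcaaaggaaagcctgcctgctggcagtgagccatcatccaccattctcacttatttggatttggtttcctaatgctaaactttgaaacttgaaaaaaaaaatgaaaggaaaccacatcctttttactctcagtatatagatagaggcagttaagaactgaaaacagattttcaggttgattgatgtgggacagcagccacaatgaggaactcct
GPR183, chr13:99307350-99307649, minus strand: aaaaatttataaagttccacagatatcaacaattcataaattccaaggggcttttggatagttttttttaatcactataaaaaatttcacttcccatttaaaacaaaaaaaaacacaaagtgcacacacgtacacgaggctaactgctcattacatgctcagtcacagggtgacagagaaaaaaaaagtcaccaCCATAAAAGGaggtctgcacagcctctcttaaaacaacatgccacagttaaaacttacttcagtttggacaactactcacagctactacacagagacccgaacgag
SSPN, chr12:26195086-26195385, plus strand: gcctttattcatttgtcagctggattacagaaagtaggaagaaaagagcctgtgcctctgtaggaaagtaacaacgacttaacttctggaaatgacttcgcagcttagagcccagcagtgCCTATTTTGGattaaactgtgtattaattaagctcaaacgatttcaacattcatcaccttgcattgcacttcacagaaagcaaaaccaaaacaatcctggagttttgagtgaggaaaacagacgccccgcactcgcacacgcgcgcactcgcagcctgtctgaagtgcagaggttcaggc
EGR1, chr5:138465229-138465528, plus strand: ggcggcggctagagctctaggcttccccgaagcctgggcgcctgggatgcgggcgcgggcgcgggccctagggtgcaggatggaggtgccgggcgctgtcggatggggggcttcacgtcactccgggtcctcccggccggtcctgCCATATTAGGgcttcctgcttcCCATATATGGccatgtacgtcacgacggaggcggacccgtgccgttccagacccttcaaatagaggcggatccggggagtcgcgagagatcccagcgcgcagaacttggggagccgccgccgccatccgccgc
ACTG2, chr2:73892758-73893057, plus strand: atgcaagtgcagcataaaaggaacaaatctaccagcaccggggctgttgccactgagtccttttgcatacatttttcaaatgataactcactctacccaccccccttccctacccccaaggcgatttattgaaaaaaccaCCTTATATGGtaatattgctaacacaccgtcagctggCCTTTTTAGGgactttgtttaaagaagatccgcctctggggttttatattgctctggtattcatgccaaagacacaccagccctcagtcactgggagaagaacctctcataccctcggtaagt
ACTG1, chr17:81512750-81513049, minus strand: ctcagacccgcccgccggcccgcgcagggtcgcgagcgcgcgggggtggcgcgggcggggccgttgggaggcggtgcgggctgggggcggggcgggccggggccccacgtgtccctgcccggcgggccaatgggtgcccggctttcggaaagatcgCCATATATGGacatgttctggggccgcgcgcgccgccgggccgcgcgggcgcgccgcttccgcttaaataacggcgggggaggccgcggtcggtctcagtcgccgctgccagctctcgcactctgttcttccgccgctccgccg

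In all, 454 of the 35116 promoters in the table held a match (1.29%), as did 138 of the 12142 that belong to genes tested here (1.14%). Among the genes called higher with the block, 18 have a promoter in the table and 3 of them held a match (16.7%). Without SRF, which the construct supplies, it was 2 of 17 (11.8%). The 3 were SRF, with sites that begin 30 and 10 bases before its start, GPR183 and SSPN. None of the 13 promoters of genes called lower held one, and neither did those of PTER, EPM2A, GZMA or LMOD1. For comparison, 6 of the 30 promoters of the cytoskeletal SRF targets held a match (20%), and 2 of 17 for the smooth muscle genes (11.8%). A match is a run of letters in this window, not a site shown to be bound, and boxes further away, as in introns, were not searched.

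Apart from SRF itself, few genes passed the test. Without the block, 5 of 18544 genes were called at an edgeR adjusted p under 0.05 (0.027%), 4 higher (0.0216%) and 1 lower (0.00539%). They were SRF, the long noncoding RNA gene ENSG00000248187, GZMA and EPM2A, which rose, and PTER, which fell. With the block, 45 genes were called (0.243%), 30 higher (0.162%) and 15 lower (0.0809%), and these include all 5. The unadjusted p was under 0.05 for 997 genes (5.38%) without the block and for 1926 (10.4%) with it.

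PTER, a phosphotriesterase-related hydrolase (ENSG00000165983, GRCh38 chr10:16436943-16513745, plus strand), was at 5.42, 5.29 and 6.75 CPM in pMSCV and at 2.04, 2.30 and 2.53 CPM in SRF. It was lower in each SRF library than in any pMSCV library, as were 4.52% of all genes tested. Its log2 fold change was -1.31 in both fits (SE 0.16 with the block, edgeR adjusted p 0.00707 without and 0.00304 with it). It lost the call in the fit without the block when SRF replicate 1 was left out (edgeR adjusted p 0.0624). PTER kept it without any other single library.

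EPM2A encodes laforin, a phosphatase that acts on glycogen (ENSG00000112425, GRCh38 chr6:145382535-145736023, minus strand). It was at 6.80, 8.08 and 6.75 CPM in pMSCV and at 12.98, 12.2 and 11.6 CPM in SRF, so the groups did not overlap, as for 9.81% of all genes tested. Its log2 fold change was 0.80 in both fits (SE 0.13), with an edgeR adjusted p of 0.0483 without and 0.0112 with the block. The call without the block was lost when any 1 of the 6 libraries was left out, with an edgeR adjusted p of up to 0.401. With the block it was lost in 3 of these 6 fits (edgeR adjusted p up to 0.0938). Of the 13 glycogen metabolism genes tested, EPM2A was the 1 called. The branching enzyme GBE1 was at 78.8, 85.1 and 101 CPM against 120, 122 and 106 CPM (log2 fold change 0.43, SE 0.11, edgeR adjusted p 0.16 with the block). GBE1 is not among the fixed genes. The median of the list, EPM2A included, was 0.15, against 0.00 for all genes tested, and its pair medians were 0.09, -0.002 and 0.12. In all 3 pairs, 2 members were higher and 3 lower (3068 and 2933 of all 18544 genes). At an unadjusted p under 0.05 with the block, 3 were higher and 0 lower (5.55% and 4.83% of all genes).

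ENSG00000248187 (GRCh38 chr4:128567972-128570531, minus strand) is annotated as a long intergenic noncoding RNA. It was at 0.53, 0.52 and 1.63 CPM in pMSCV and rose to 5.79, 5.47 and 8.89 CPM in SRF. Its log2 fold change was 2.94 with the block (SE 0.39, edgeR adjusted p 0.00361) and 2.93 without it (edgeR adjusted p 0.0174), and the groups were far apart. Without the block, 4 of the 6 fits that left out a library lost the call, with an edgeR adjusted p of up to 0.229 without pMSCV replicate 1. The annotated genes on either side of it were too low to be tested.

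GZMA encodes granzyme A, a serine protease known from cytotoxic lymphocytes (ENSG00000145649, GRCh38 chr5:55102648-55110252, plus strand). It had 3, 1 and 2 counts in the pMSCV libraries and 70, 43 and 90 counts in the SRF libraries. These sums, 6 against 203, give a ratio per total of 33.2 (95% interval 15.0 to 91.5, counting error only). The edgeR adjusted p was 0.0483 without the block and 0.0106 with it. Without the block the call was lost when any 1 of the 6 libraries was left out (up to 0.362). With the block it was lost in 5 of these 6 fits (up to 0.0915). Among the 8 haematopoietic markers, CD3E and GZMB were at 0 in all 6 libraries, and PTPRC, which marks nearly all white blood cells, was at 0.07 to 0.28 CPM in pMSCV and 0.11 to 0.17 CPM in SRF. The 8 markers summed to 0.92 to 2.01 CPM in pMSCV and 2.18 to 4.20 CPM in SRF, most of it CD34 (0.46, 1.16 and 1.25 CPM against 1.82, 1.38 and 2.99 CPM). The part of other cells in the GZMA value was not tested.

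**Figure D1:**
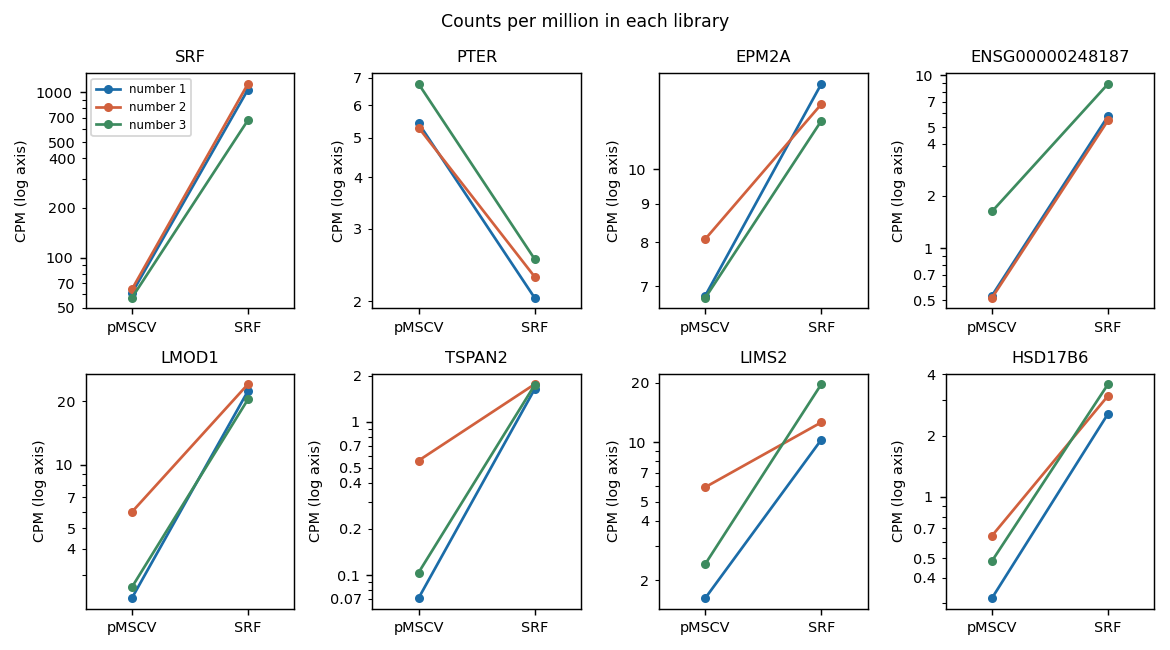
CPM of 8 genes in each pMSCV and SRF library on log axes, with lines joining libraries of the same number. PTER falls in each pair, the other 7 genes rise in each, and LMOD1, TSPAN2 and LIMS2 start highest in pMSCV replicate 2.

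Among the genes called higher with the block was LMOD1. LMOD1, or leiomodin 1, nucleates actin filaments in smooth muscle (ENSG00000163431, GRCh38 chr1:201896452-201946588, minus strand). It was at 2.34, 5.97 and 2.63 CPM in pMSCV and at 22.3, 24.1 and 20.4 CPM in SRF. The SRF libraries lay close together, and pMSCV replicate 2 was the highest control. LMOD1 rose by 2.84 on the log2 scale with the block (SE 0.34, edgeR adjusted p 0.00341), or 7.17-fold. Without the block its spread over the 18 libraries gave an SE of 0.63 and an edgeR adjusted p of 0.43.

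LIMS2, or PINCH-2, is an adaptor of integrin adhesions. It was at 1.63, 5.93 and 2.42 CPM in pMSCV and at 10.3, 12.6 and 19.7 CPM in SRF, with a log2 fold change of 2.33 with the block (SE 0.34, edgeR adjusted p 0.00956). GPR17, which overlaps it on the opposite strand, was at a mean of 0.09 CPM against 0.57 CPM and was not called (edgeR adjusted p 0.11 with the block). Whether strand was used in counting is not given in the sources used here, so reads of overlapping genes on opposite strands may have been shared. TSPAN2, a tetraspanin of the cell surface, was at 0.07, 0.56 and 0.10 CPM and then at 1.63, 1.76 and 1.74 CPM (2, 13 and 3 counts against 44, 46 and 50). Its log2 fold change was 3.13 with the block (SE 0.55, edgeR adjusted p 0.0296). As for LMOD1, the smallest of the 3 pair differences was that of number 2. SSPN, or sarcospan, a membrane protein of the dystrophin complex, went from 11.0, 9.93 and 8.80 CPM to 26.1, 14.9 and 16.3 CPM (log2 fold change 0.96, SE 0.15, edgeR adjusted p 0.0106 with the block).

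Enzymes were also among the genes called higher. PTGS1, the constitutive cyclooxygenase, was at 11.1, 7.01 and 19.3 CPM and then 26.2, 37.1 and 58.3 CPM (log2 fold change 1.69 with the block, SE 0.31, edgeR adjusted p 0.0413). ACOT1, an acyl-CoA thioesterase, was at 0.67, 1.59 and 1.28 CPM against 1.63, 2.98 and 4.30 CPM (1.39, SE 0.25, edgeR adjusted p 0.0308). ACOT1 has a near-identical neighbour, ACOT2, so its counts are uncertain. HSD17B6, which oxidizes steroids and retinol, was at 0.32, 0.64 and 0.48 CPM against 2.56, 3.14 and 3.58 CPM, a log2 fold change of 2.78. BLVRA (biliverdin reductase, 1.05) and TALDO1 (transaldolase of the pentose phosphate pathway, 0.64) were higher by less.

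Of the receptors and signalling genes, GPR183, an oxysterol receptor known for guiding immune cells, had pair differences that spread widely. It was at 0.28, 0.13 and 0.66 CPM in pMSCV and at 2.82, 5.89 and 1.98 CPM in SRF (log2 fold change 3.16 with the block, SE 0.45, edgeR adjusted p 0.00841). The groups did not overlap (5.29% of all genes tested were higher without overlap), and the pair numbered 2 differed most. LYN, a kinase of the SRC family (log2 fold change 1.00), TNFRSF14, a receptor of the tumour necrosis factor family (0.48), and LITAF, an endosomal membrane protein (1.20), were also called higher with the block. So were CD248, or endosialin, a surface protein of stromal cells (0.82), IGFBP7, a secreted binding protein of growth factors (0.73), CHST2, a sulfotransferase (0.73), and CPM, the gene of carboxypeptidase M (1.10), which overlaps MDM2 on the opposite strand. CCDC190, a coiled-coil gene, was at 0.60, 0.73 and 0.76 CPM against 1.63, 1.49 and 3.71 CPM (1.70, SE 0.30, edgeR adjusted p 0.0289).

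The other genes called higher are mostly noncoding. MBNL1-AS1 was at 5.03, 4.99 and 6.37 CPM in pMSCV and at 13.5, 10.5 and 16.2 CPM in SRF (log2 fold change 1.32, SE 0.20, edgeR adjusted p 0.00956 with the block and 0.0528 without). MBNL1, which overlaps it on the other strand and encodes a splicing regulator, was at a mean of 206 CPM against 176 CPM (log2 fold change -0.20, edgeR adjusted p 0.51). LINC00840 was at 0.89, 1.85 and 1.07 CPM against 1.97, 3.29 and 4.41 CPM (1.37, SE 0.26, edgeR adjusted p 0.0432). LINC01415 was at 1.20, 2.28 and 2.87 CPM against 3.08, 5.58 and 5.42 CPM (1.21, SE 0.19, edgeR adjusted p 0.0123). ENSG00000229160, ENSG00000255595 and ENSG00000226043 had log2 fold changes of 3.06, 1.26 and 1.11. RPL7AP28, a processed pseudogene whose reads may belong to other copies of the ribosomal protein gene, had 0 counts in each pMSCV library and 13, 13 and 20 counts in SRF. Taking 3 counts per pMSCV library, it was at least 5.02-fold higher.

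With the block, 15 genes were called lower. ST6GAL2, a sialyltransferase, was at 47.8, 37.7 and 29.7 CPM in pMSCV and at 15.6, 13.8 and 10.4 CPM in SRF. Its groups were far apart, and it fell by 1.503 on the log2 scale (SE 0.25, edgeR adjusted p 0.0209). HTR1F, a serotonin receptor, was at 10.8, 9.93 and 9.45 CPM and then 4.78, 4.09 and 2.88 CPM (log2 fold change -1.36, SE 0.23, edgeR adjusted p 0.0192). DACT3, an inhibitor of Wnt signalling, was at 22.3, 17.02 and 18.3 CPM and then 11.5, 7.92 and 8.02 CPM (-1.05, SE 0.14, edgeR adjusted p 0.00361). The 3 pairs of DACT3 lay close together, and without the block the log2 fold change was -1.04 with an SE of 0.29. TSPAN9, a tetraspanin, was at 34.6, 44.9 and 32.6 CPM and then 17.95, 23.2 and 13.1 CPM (-1.02, SE 0.13, edgeR adjusted p 0.00341). In both groups of TSPAN9, library 2 was the highest.

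AGAP2, a GTPase-activating protein, was at 5.88, 10.1 and 7.20 CPM in pMSCV and at 2.78, 4.67 and 2.74 CPM in SRF (log2 fold change -1.16, SE 0.17, edgeR adjusted p 0.00956), and AGAP2-AS1 overlaps it on the opposite strand. SEMA6B, a semaphorin, was at 6.80, 6.62 and 7.72 CPM against 2.89, 4.25 and 3.58 CPM (-0.97, SE 0.18, edgeR adjusted p 0.0413). MEIS3, a homeobox factor, was at 9.67, 11.1 and 9.70 CPM against 4.93, 6.46 and 4.86 CPM (-0.88, SE 0.14, edgeR adjusted p 0.0106). These 3 did not overlap between the groups, and neither did LMBR1 and CAB39L, named next. Over all genes tested, 4.52% were lower in SRF without overlap in TMM-scaled CPM. LMBR1, a membrane protein, was at 110, 133 and 105 CPM against 66.7, 71.0 and 53.2 CPM (-0.84, SE 0.15, edgeR adjusted p 0.0229). CAB39L, a scaffold of the kinase LKB1, was at 12.8, 9.89 and 8.62 CPM against 7.53, 6.01 and 5.62 CPM (-0.67, SE 0.13, edgeR adjusted p 0.0478). The remaining genes called lower were the RNA-binding RBPMS2 (-2.17, at 1.05 ± 0.33 CPM against 0.22 ± 0.08 CPM, SD, n = 3), the adhesion receptor ADGRB2 (-0.52), the mitochondrial glutamate carrier SLC25A22 (-0.51), TEAD2, a DNA-binding partner of YAP (-0.49), and SEPTIN8, a cytoskeletal GTPase (-0.48).

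The count with the block changed when single libraries were left out, and the part of the smaller group in this was not tested. It was 9 without pMSCV replicate 3, 9 without SRF replicate 1, 13 without pMSCV replicate 1 or SRF replicate 3, 18 without pMSCV replicate 2 and 77 without SRF replicate 2. Of the 45 genes, 7 were called in each of these 6 fits, among them SRF, LMOD1, ENSG00000248187, PTER, TSPAN9 and DACT3. The rest lost the call in at least 1 of them, and RBPMS2, CHST2, SEPTIN8, SLC25A22, CAB39L and ENSG00000255595 lost it in each. Without SRF replicate 2, 8 of the 45 lost the call. Without any other single library, 31 to 37 of them lost it. The fit without SRF replicate 2 called 37 of the 45 again. Of the genes annotated next to a called gene, 32 were high enough to be tested and 0 were called, with or without the block. The lowest adjusted p among them was that of GPR17.

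**Figure D2:**
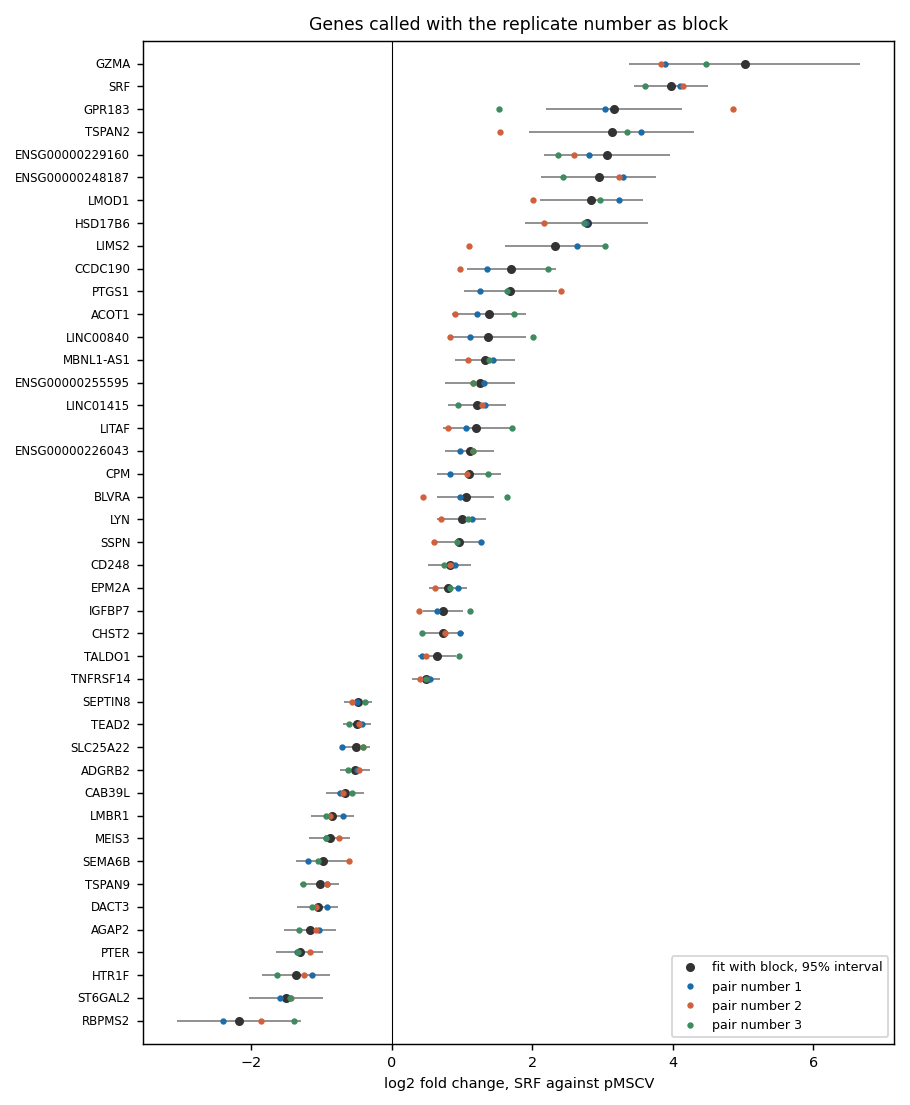
Log2 fold change of SRF against pMSCV for genes called with the replicate number as block. Black points with bars are the fitted values with 95% intervals and coloured points the difference within each pair of same-numbered libraries. The pairs of TSPAN9, DACT3 and PTER lie close together, while those of GPR183, LIMS2 and TSPAN2 spread over more than 1 log2 unit. RPL7AP28, at 0 in pMSCV, and 1 gene not reported here are left out.

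None of the SRF cofactors was called. The list had 10 tested members, and the median log2 fold change with the block was -0.20. MRTFA was at 30.8, 36.8 and 29.1 CPM in pMSCV and at 29.04, 34.8 and 29.4 CPM in SRF, with a 95% interval of the log2 fold change from -0.26 to 0.22. MRTFB (-0.25), ELK1 (-0.10), ELK3 (-0.28) and ELK4 (-0.18) had intervals that reached no further than -0.62. Those of MRTFB, ELK1 and ELK4 included 0. That of ELK3 lay below 0 (-0.48 to -0.08), with an edgeR adjusted p of 0.31 with the block. MYOCD, the myocardin of smooth and cardiac muscle, was at 0.11, 0.95 and 1.28 CPM against 0.37, 3.67 and 1.08 CPM, and its interval ran from -0.44 to 2.08.

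Of the 23 smooth muscle contractile genes, 18 were tested and LMOD1 was the 1 called, with the block. The list had a median log2 fold change of 0.36 with and without the block, against 0.00 with and 0.01 without it over all genes tested. With the block, 7 of the 18 were higher and 0 lower at an unadjusted p under 0.05 (5.55% and 4.83% of all genes), and 4 were higher and 1 lower with no overlap between the groups in TMM-scaled CPM (5.29% and 4.52% of all genes). The pair medians of the list were 0.30, -0.08 and 0.50 for numbers 1, 2 and 3. The median was thus near 0 in the pair numbered 2. The pMSCV library of that pair was the highest control for LMOD1, CNN1 and TAGLN and the lowest for ACTA2 and MYH11. Its part in the pair median was not tested.

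ACTA2, the smooth muscle alpha actin that marks myofibroblasts, was at 15.4, 15.2 and 21.5 CPM in pMSCV and at 44.0, 35.9 and 61.3 CPM in SRF. Each SRF library was above each control, yet ACTA2 did not pass the test (log2 fold change 1.51 with the block, SE 0.45, edgeR adjusted p 0.26). CNN1, or calponin, was at 4.21, 15.5 and 9.04 CPM against 10.5, 17.5 and 25.5 CPM, so the groups overlapped (1.08, SE 0.28, edgeR adjusted p 0.16). TAGLN, or transgelin, ranged from 72.2 to 264 CPM in pMSCV and from 86.8 to 336 CPM in SRF, with a log2 fold change of 0.44 and an interval of -0.17 to 1.05. ACTG2 had a log2 fold change of 0.83 and MYL9 of 0.44. MYH11, the smooth muscle myosin heavy chain, was near 1 CPM in both groups (-0.42, interval -2.16 to 1.32). DES, the muscle intermediate filament, had 3 counts or fewer in each of the 6 libraries. The actin genes resemble each other closely, and reads may have been split between them.

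None of the cytoskeletal SRF targets was called, and most had narrow intervals. All 32 were tested, 0 were called with or without the block, and their median log2 fold change was 0.00. With the block, 5 were higher and 0 lower at an unadjusted p under 0.05 (5.55% and 4.83% of all genes). In TMM-scaled CPM, 3 were higher and 1 lower with no overlap between the groups (5.29% and 4.52% of all genes). MYL9 and PDLIM7, among the 5, are also in the smooth muscle list. With the block, the 95% interval lay within 1 log2 unit of 0 for 30 of the 32, and for 13731 of all 18544 genes (74.0%). ACTB was at 3246, 3445 and 3313 CPM in pMSCV and at 2962, 2714 and 4203 CPM in SRF, with an interval of -0.35 to 0.37. VCL (-0.08, interval -0.54 to 0.37), FLNA (-0.19, interval -0.60 to 0.22), ACTG1 (-0.12, interval -0.35 to 0.11) and TPM1 (-0.11, interval -0.57 to 0.35) lay within the same bounds of 1 log2 unit. The largest value in the list was that of DSTN, or destrin, which severs actin filaments. DSTN was at 278, 349 and 346 CPM against 445, 432 and 612 CPM, groups that did not overlap (0.65, SE 0.14, edgeR adjusted p 0.0645 with the block).

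Of 35 immediate early genes tested, SRF itself was the 1 called, and the median of the other 34 was 0.09 with the block. FOS was at 832, 13.6 and 622 CPM in pMSCV and at 1114, 24.7 and 631 CPM in SRF, EGR1 at 845, 63.7 and 541 CPM against 994, 113 and 418 CPM, and FOSB at 655, 2.32 and 309 CPM against 784, 2.03 and 273 CPM. For these 3 genes the libraries numbered 2 were the lowest of both groups. The log2 differences of the pairs numbered 1, 2 and 3 were 0.45, 0.87 and 0.07 for FOS, 0.26, 0.84 and -0.32 for EGR1 and 0.28, -0.17 and -0.13 for FOSB. With the block, the interval of FOS narrowed from between -3.15 and 3.76 to between -0.27 and 1.05, and that of FOSB from between -4.27 and 4.60 to between -0.54 and 0.63. JUNB (0.39), IER2 (0.33), EGR3 (0.31), EGR2 (-0.19) and MCL1 (-0.09) were not called, and neither were the matrix proteins CCN1 (0.01) and CCN2 (-0.13), whose genes respond to SRF and YAP.

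**Figure D3:**
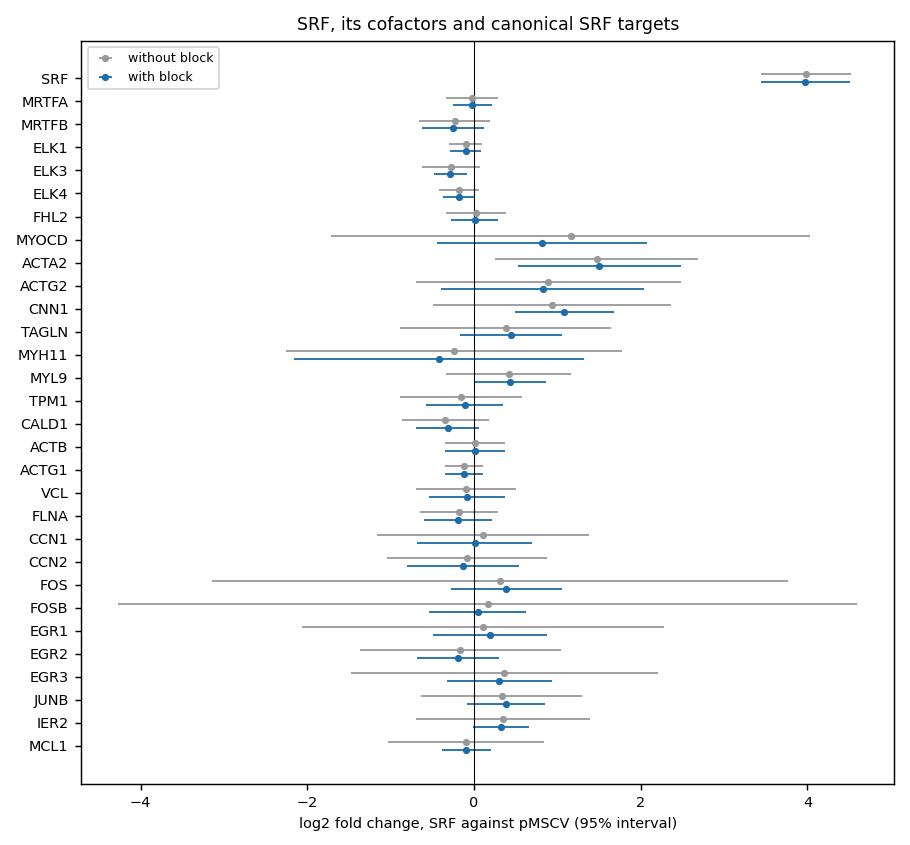
Log2 fold change of SRF against pMSCV with 95% intervals for SRF, its cofactors and canonical targets, without (grey) and with (blue) the replicate block. SRF lies near 4, and the interval of ACTA2 lies above 0 in both fits. With the block, the intervals of CNN1 and MYL9 lie above 0 and that of ELK3 below 0. The intervals of the immediate early genes FOS, FOSB and EGR1 narrow when the block is used.

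Other programmes gave no called gene in either fit. The striated muscle genes had 13 of 33 members tested, and ACTC1, the cardiac actin, had 0 counts in pMSCV and 4 in SRF. Leaving ACTC1 out, the median of the other 12 was -0.09. MYOD1, MYOG and MYF5, which specify skeletal muscle, were at 0 in all 6 libraries. Medians with the block were -0.18 for 24 YAP-TEAD and TGF-beta targets, -0.06 for 32 collagen and matrix genes, 0.05 for 27 NF-kB and inflammatory genes and 0.00 for 31 interferon response genes. The pair medians, for numbers 1 to 3, were 0.22, 1.12 and -0.76 for the NF-kB list and 0.39, 0.17 and -0.34 for the interferon list. The pairs of these lists thus disagreed. In the YAP-TEAD list, 0 were higher and 4 lower at an unadjusted p under 0.05 with the block (5.55% and 4.83% of all genes). In the matrix list, the proteoglycan VCAN was at 1108, 1986 and 1382 CPM against 602, 1212 and 466 CPM, lower in each pair but not called (-0.98, SE 0.20, edgeR adjusted p 0.0554 with the block). VCAN was named after its values were seen.

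The 30 proliferation genes had a median of -0.37 with the block and -0.18 without it, and none was called. With the block, 0 were higher and 6 lower at an unadjusted p under 0.05 (5.55% and 4.83% of all genes). Their pair medians were -0.47, -0.94 and 0.26, so the pair numbered 3 went the other way. Of 16 bone, fat and cartilage genes, 6 were tested and 0 called. ALPL, the alkaline phosphatase of bone-forming cells, was the outlying member and is named after its values were seen. ALPL was at 0.60, 0.52 and 1.28 CPM in pMSCV and at 6.45, 1.84 and 16.2 CPM in SRF. The groups did not overlap, as for 5.29% of all genes tested, which were higher without overlap. The SRF libraries differed widely among themselves, and the edgeR adjusted p was 0.085 with the block (log2 fold change 3.25, SE 0.68).

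**Figure D4:**
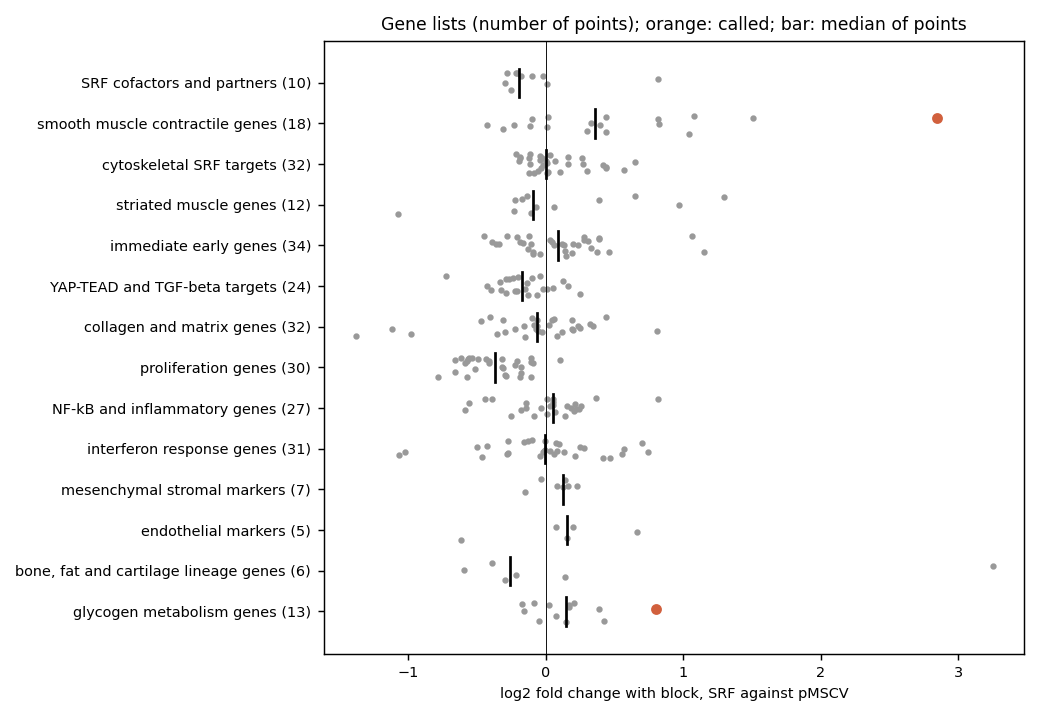
Log2 fold change with the replicate block for the tested members of 14 gene lists. Each point is a gene, orange points were called, and bars mark the median of the points. SRF itself and ACTC1 are left out. The median of the smooth muscle list lies at 0.36, with members on both sides of 0, that of the proliferation list at -0.37 and that of the cytoskeletal targets at 0.00.

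A few of the called genes, chosen after their values were seen, were also read in the fusions, which share the SRF and pMSCV libraries with this comparison, so that their differences from SRF are not independent of the results above. SRF counts in the fusions lay between SRF and pMSCV, from 151 to 337 CPM over 12 libraries. These are counts per gene, and a fusion may carry a part of SRF, so they may not compare the amounts of construct. PTER averaged 6.02 ± 1.01 CPM with the partner RELA, 5.63 ± 0.64 with FOXO1, 5.91 ± 0.50 with ICA1L and 5.89 ± 0.44 with PDGFRB (SD, n = 3), beside 5.82 ± 0.81 in pMSCV and 2.29 ± 0.25 in SRF. All 12 fusion libraries were at 5.04 CPM or more, above each SRF library. EPM2A averaged 7.09 to 8.48 CPM in the 4 fusions, beside 7.21 in pMSCV and 12.3 in SRF. ST6GAL2 averaged 40.7 to 58.4 CPM in the fusions, beside 38.4 in pMSCV and 13.3 in SRF, and DACT3 15.7 to 19.8 CPM, beside 19.2 and 9.16. The fusion means of ST6GAL2 were thus above the pMSCV mean, but 0 of the 4 fusions were called against pMSCV in either fit. The lowest edgeR adjusted p with the block was 0.11, with the partner ICA1L. LMBR1 had another order, at 61.6 CPM with FOXO1, 55.6 with ICA1L, 70.3 with RELA and 93.7 with PDGFRB, beside 116 in pMSCV and 63.6 in SRF.

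For LMOD1, TSPAN2 and LIMS2 the means of the fusions differed, and the fusions were not tested against each other here. LMOD1 averaged 43.1 ± 31.2 CPM with FOXO1, 30.4 ± 12.6 with ICA1L, 20.5 ± 11.5 with RELA and 6.17 ± 2.87 with PDGFRB, beside 22.3 ± 1.84 in SRF and 3.65 ± 2.02 in pMSCV. With the block, the edgeR adjusted p against SRF was 0.18, 0.57, 0.64 and 0.00673 in the same order. Without the block, none of the 4 passed, and that of PDGFRB was 0.26. TSPAN2 averaged 5.66, 9.71 and 4.69 CPM with FOXO1, ICA1L and RELA and 0.96 CPM with PDGFRB, beside 1.71 in SRF. Its edgeR adjusted p against SRF with the block was 0.035, 0.0021, 0.16 and 0.22, so PDGFRB was not called. LIMS2 averaged 18.8, 25.4, 14.5 and 6.37 CPM in the same order, beside 14.2 in SRF. Its edgeR adjusted p against SRF with the block was 0.75, 0.16, 0.95 and 0.049. Without the block, 0 of the 4 fusions passed for either gene, and PDGFRB was at 0.68 for TSPAN2 and 0.44 for LIMS2. SRF-PDGFRB had the lowest mean of the 5 constructs for all 3 genes, and libraries of 1 fusion differed widely, as for LMOD1 in SRF-FOXO1 (14.4 to 76.3 CPM).

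**Figure D5:**
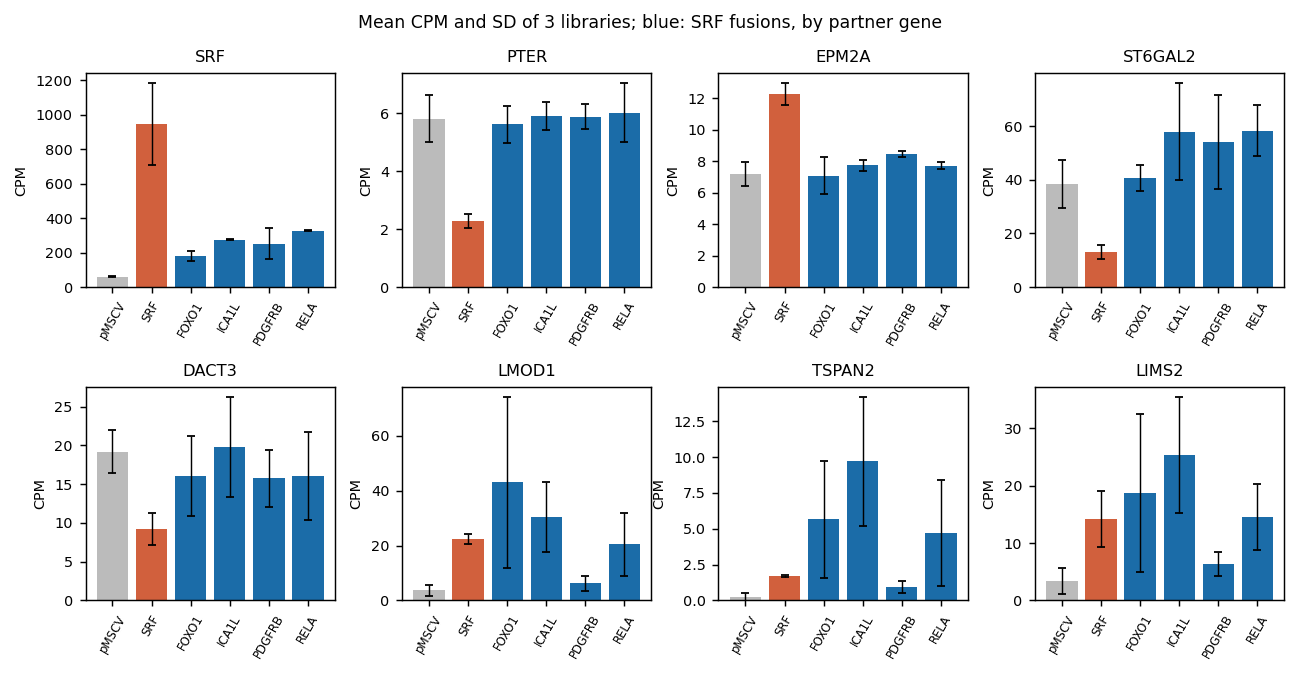
Mean CPM and SD of the 3 libraries of each group for 8 genes, with pMSCV in grey, SRF in orange and the fusions in blue. In PTER and ST6GAL2 the SRF bar is lower and in EPM2A higher than the other 5, with no overlap of the SD bars, in DACT3 it is the lowest with an SD bar that overlaps those of SRF-FOXO1 and SRF-RELA, and in LMOD1, TSPAN2 and LIMS2 the SRF-PDGFRB bar is the lowest of the constructs.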

How the data were processed

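RNA was sequenced from stranded mRNA libraries of 18 samples of MSC-hTERT, per the labels' protocols. The authors deposited raw counts per Ensembl gene, not normalized, per the file headers. The submitters' processing notes name Trimmomatic 0.39, FastQC 0.11.8, HISAT2, Subread 2.0.3 with featureCounts, and GRCh38. The annotation release and strand setting are not given in the sources used here. Of 61487 identifiers, 61369 took symbols from a table of gene names and 105 from GENCODE 29, whose coordinates are used, and 13 had none.

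edgeR 4.0.16 (R 4.3.3) was fitted to all 18 libraries after filterByExpr (minimum count 10) and TMM scaling, with robust quasi-likelihood and 1 coefficient per group. Tests are two-sided with Benjamini-Hochberg adjustment over 18544 genes, called under 0.05. SE is the absolute log2 fold change over the square root of F. CPM are scaled to the library total without TMM factors. Residual degrees of freedom were 12 without and 10 with the block, and the common coefficient of variation was 0.225 and 0.150.

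As a check of pairing, deviations from group means were correlated across genes. For pMSCV and SRF of the same number r was 0.58, 0.20 and 0.35 (numbers 1 to 3), and for different numbers -0.41 to 0.08. The pairing is read from the values, since the labels do not say what a number marks.

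Named genes are SRF, all called genes (in full for up to 10 higher and 10 lower by size with an average of 1 log2 CPM or more and 1 sign in all pairs) and 30 fixed genes. Members and lists were chosen with earlier results of these data known. The scripts were tested on simulated counts. Alternatives were DESeq2 size factors, total-count scaling, the DESeq2 1.42.0 Wald test, no filter, at least 10 counts in every library, the 2 groups alone, a log2 fold change of 1 or more in size, each library left out, and, chosen after seeing the data, a correction for GENCODE 29 transcript length. Values of 1 gene called with the block are not reported here.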

Additional observations from a re-analysis of the deposited data

How the results depend on the processing

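The replicate block moved the count of called genes from 5 to 45, the same 5 among them. Without the block, the count was 3 with DESeq2 size factors, 36 with the DESeq2 Wald test, 11 with no count filter, 1 with the 2 groups alone and 3 with the length correction, and 1 to 4 when single libraries were left out. With the block, it was 191 with the DESeq2 Wald test (44 of the 45 among them), 142 with no count filter (40 of them), 10 with the 2 groups alone (7 of them), 29 with a log2 fold change of 1 or more in size, and 9 to 77 without single libraries. With no replicate block it was 5. Total-count scaling gave 4 and 44, at least 10 counts in every library 4 and 39, and DESeq2 size factors with the block 42. The length correction with the block gave 54 (42 of the 45 among them). Causes of these changes were not tested.

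Of 1225 values of single genes and lists under an alternative, 938 were rated the same and 262 lost the call. Another 25 moved by more than their spread, and 0 called values changed sign. A called gene was rated the same if it kept its sign and call. A gene not called was rated the same if it stayed so, even where its sign changed by a shift under its SE. A list median was rated the same if it shifted by less than the SD of its pair medians. Of the fixed genes that were not called, 17 had a sign that differed under at least 1 alternative, so their values carry no direction. Low counts limit the called genes RPL7AP28, GZMA, ENSG00000229160, TSPAN2, GPR183, HSD17B6, CCDC190, RBPMS2, ACOT1, LINC00840 and ENSG00000248187, which had under 50 counts in each pMSCV library. The 95% interval lay within 1 log2 unit of 0 for 68.0% of 18537 genes without the block and 74.0% with it.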
